A study of Homo sapiens with 6 samples.

Results

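Sterol and fatty acid synthesis was followed through 31 genes in Hs578T, an established breast cancer cell line, with an inducible HOXA5 gene. The genes were taken by symbol from the array platform's table, and every probe set that the table assigned to exactly 1 of them was used. They fell into a sterol arm of 17 enzymes from HMGCS1 to DHCR7, 4 regulators (INSIG1, SREBF1, SREBF2 and SCAP), and a fatty acid arm of 10 genes around FASN, SCD, ACACA and ACLY. Of the 31 genes, 26 had a tested probe set, among 10444 genes tested on the arrays. FDFT1 and ACSL3 had no probe set in the table and were not analysed here. CYP51A1 and FADS1 were named only on probe sets that also carry another gene's symbol, so no value is given for them. EBP, the sterol isomerase, had 3 probe sets that lay at or near the floor set on the intensities in processing and were not tested.

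Cells make cholesterol from acetyl-CoA through mevalonate, isoprenoids, squalene and lanosterol. The acetyl-CoA comes from citrate by way of ACLY, and ACACA, FASN and SCD turn it into fatty acids. Both arms are under the control of the SREBP transcription factors, which are made as membrane precursors from SREBF1 and SREBF2. SCAP escorts the precursors to the Golgi for cleavage when sterols are low, and INSIG1 holds SCAP back in the endoplasmic reticulum when sterols are high. INSIG1 is itself an SREBP target, so its message is often read as a gauge of the pathway. In breast cancer lines FASN and SCD are studied as the source of membrane lipid in dividing cells.

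The homeobox gene HOXA5 encodes a transcription factor, and the study addressed which genes it regulates. Each of 2 experiments gave 1 Affymetrix array before induction (0 h), 1 after 6 h and 1 after 9 h, so the 3 groups held 2 arrays each. All groups carried the inducible HOXA5 construct. The inducing agent and the clonality of the line are not given in the sources used here.

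Because the samples used here hold 0 uninduced arrays of 6 h or 9 h, induction and time in culture cannot be told apart. In such bulk RNA, fewer cells of a type and less RNA per cell cannot be told apart either. The labels name the experiments as batches of RNA and no separate cultures within them, so p-values measure only the spread between these arrays, which may be technical. HOXA5 had 0 probe sets in the table, so its induction was not analysed here. The deposited intensities differed in scale, with 2% trimmed means 5.49-fold apart between the highest and the lowest array, and were quantile normalised and floored at 12.7 units. Of 10 mesenchymal markers, 8 lay above the floor on all 6 arrays, where Hs578T is known as a mesenchymal-like line. Of 6 luminal epithelial markers, EPCAM and CLDN4 were at the floor on all arrays and GATA3 and KRT7 above it on all. The ratio of 3′ to 5′ probe sets of ACTB, a sign of RNA integrity, was 1.82 on the 9 h array of experiment 1 and between 0.918 and 1.09 on the other arrays. Its part in the values below was not tested.

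More members had lower values after induction than before it. Counts of genes here and below take the probe set with the highest mean over the 6 arrays for each gene. At 6 h against 0 h, 13 of 26 members were lower in both experiments, or 50%, where 25% of all tested genes were, and 4 were higher in both, where 26.9% of all genes were. At 9 h against 0 h, 13 were again lower in both experiments, against 29.5% of all genes, and 5 were higher in both, against 28% of all genes. Both counts use the same 0 h arrays, so they are not separate evidence. The median log2 change over the 26 members was -0.31 at 6 h and -0.41 at 9 h, against 0.01 and -0.02 over all tested genes. In experiment 1 the members' median was -0.55 at 6 h and -0.58 at 9 h, and in experiment 2 it was -0.10 and -0.19.

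The 0 h array of experiment 1 stood apart from the rest in the sterol and fatty acid arms. With each gene centred on its own mean over 6 arrays, the median of the sterol arm was 0.43 on the 0 h array of experiment 1 and between -0.23 and 0.02 on the other 5. The fatty acid arm stood at 0.39 on that array and between -0.16 and -0.08 on the others. The regulators were instead at 0.51 and 0.26 on the 0 h arrays, 0.04 and -0.07 after 6 h, and -0.44 and -0.39 after 9 h, with the arrays of each time apart from those of the others. When the experiment 1 array of 0 h was left out, the sterol median was 0.01 at both times. The fatty acid median was then -0.17 at 6 h and -0.13 at 9 h, and that of the regulators at 9 h was -0.55. For single genes at 9 h without that array, SCAP had a change of -0.99 and MVK one of -0.67, while DHCR7 had -0.70, INSIG1 -0.58 and SCD -0.30. At 6 h without it, INSIG1 had -0.49 and SCD -0.39. Without the same array, HMGCS1 had a change of 0.84 at 9 h and of 0.27 at 6 h. All values without that array set the induced arrays of both experiments against the 0 h array of experiment 2. Level differences between the experiments therefore enter them. Within experiment 2 alone, the sterol median was -0.15 at 6 h and -0.13 at 9 h, and the fatty acid median 0.03 and -0.10. There SCD had a change of -0.91 at 9 h and MVK one of -0.66.

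**Figure D1:**
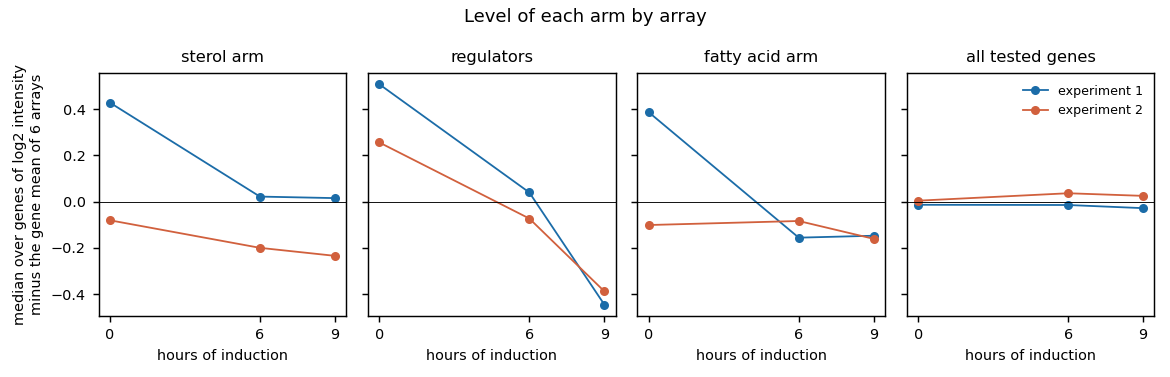
Median over genes of log2 intensity minus the gene's mean of 6 arrays, for each arm and for all tested genes, by hours of induction, with a line for each experiment. The 0 h array of experiment 1 is the highest in every arm, at 0.43, 0.51 and 0.39, and the regulators are lowest at 9 h in both experiments.

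The single-gene tests did not reach the threshold in the fit without the experiment. Of 18360 probe sets, limma with Benjamini-Hochberg adjustment called 0 (0%) at 0.05 in each of the 4 comparisons, which were 6 h against 0 h, 9 h against 0 h, 9 h against 6 h, and both induced times against 0 h. At an unadjusted p under 0.05 it gave 875, 1360, 968 and 1136 probe sets in that order. The lowest adjusted p of a member was 0.969, 0.563, 0.932 and 0.691. With the experiment as a block, 66 probe sets (0.359%) passed at 9 h against 0 h, 30 (0.163%) passed for both induced times against 0 h, and 0 passed in the other comparisons. The only one of these that belongs to a member is a probe set of SCD, described with that gene. The changes below are therefore given as values with their limma standard errors (±, n = 2 arrays per group). Unless stated, these and the adjusted p-values are of the fit without the experiment, where level differences between experiments count as spread. With the block, the standard error of the brightest SCD probe set at 6 h was 0.26 in place of 0.66. That of SCAP at 9 h was 0.25 in place of 0.28.

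**Figure D2:**
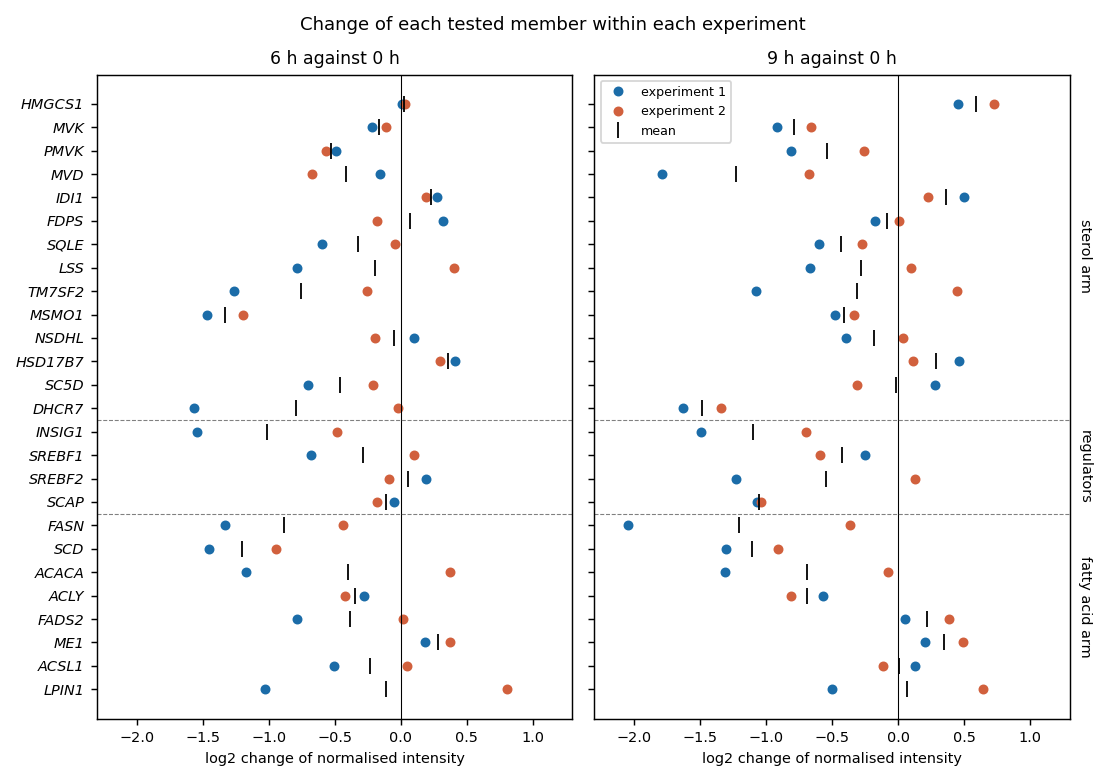
Log2 change of normalised intensity for each of the 26 tested members at 6 h (left) and 9 h (right) against 0 h. Circles are the changes within experiments 1 and 2 and black ticks their mean. At each time 13 members have both circles left of 0, and at 9 h DHCR7, by its brightest probe set, has a mean of -1.49. Each gene is drawn by its brightest probe set.

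Sequence in front of the transcription start was available from RefSeq (GRCh38.p14) for 28 of the 31 members. The 250 bases upstream of a start are shown for 4 members whose values are described in detail below as lower after induction or as carrying a sterol regulatory element, and for HMGCS1, whose values were not lower. Each runs 5′ to 3′ on the gene's own strand. Capitals mark CCAAT boxes on either strand (CCAAT or ATTGG), which bind NF-Y, a partner of SREBPs, and the sterol regulatory element TCACNCCAC.
SCD, chr10:100346983-100347232, plus strand: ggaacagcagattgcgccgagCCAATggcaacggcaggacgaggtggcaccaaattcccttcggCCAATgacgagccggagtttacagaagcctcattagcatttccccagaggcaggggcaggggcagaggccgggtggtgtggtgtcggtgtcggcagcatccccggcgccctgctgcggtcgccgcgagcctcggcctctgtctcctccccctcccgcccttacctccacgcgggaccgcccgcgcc
INSIG1, chr7:155297628-155297877, plus strand: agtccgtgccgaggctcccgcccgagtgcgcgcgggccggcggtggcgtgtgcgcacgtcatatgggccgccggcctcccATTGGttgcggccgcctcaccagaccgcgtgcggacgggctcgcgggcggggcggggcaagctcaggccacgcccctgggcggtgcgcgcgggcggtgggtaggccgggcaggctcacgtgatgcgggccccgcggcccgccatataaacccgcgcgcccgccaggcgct
DHCR7, chr11:71448394-71448643, minus strand: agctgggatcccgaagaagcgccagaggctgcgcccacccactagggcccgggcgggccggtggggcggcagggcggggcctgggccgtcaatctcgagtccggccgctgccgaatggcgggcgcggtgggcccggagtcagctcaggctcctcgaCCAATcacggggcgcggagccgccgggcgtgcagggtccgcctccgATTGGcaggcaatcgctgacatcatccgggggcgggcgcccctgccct
SREBF2, chr22:41832855-41833104, plus strand: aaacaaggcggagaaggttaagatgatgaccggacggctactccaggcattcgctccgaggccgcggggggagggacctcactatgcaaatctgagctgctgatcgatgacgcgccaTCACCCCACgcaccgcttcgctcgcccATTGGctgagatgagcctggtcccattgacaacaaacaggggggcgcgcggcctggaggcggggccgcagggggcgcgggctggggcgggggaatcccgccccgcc
HMGCS1, chr5:43313413-43313662, minus strand: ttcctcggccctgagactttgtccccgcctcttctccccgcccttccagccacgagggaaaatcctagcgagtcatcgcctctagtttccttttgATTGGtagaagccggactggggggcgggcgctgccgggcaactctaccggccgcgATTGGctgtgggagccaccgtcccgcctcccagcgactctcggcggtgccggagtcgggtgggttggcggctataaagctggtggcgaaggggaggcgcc
RefSeq gives a second start for HMGCS1 and for DHCR7, and the windows at those starts hold 0 CCAAT boxes. The windows shown for these genes are the ones with CCAAT boxes.

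Over windows of 250 bases before to 50 after the start, a CCAAT box on either strand was found for 13 of 15 sterol arm genes, 2 of 4 regulators and 6 of 9 fatty acid arm genes, against 39.7% of 27305 genes. The GC box GGGCGG, the site of SP1, was found on either strand for 14 of 15, 4 of 4 and 9 of 9, against 48.3% of all genes. The E-box CACGTG was found for 2 of 15, 2 of 4 and 0 of 9, against 8.77%. The element TCACNCCAC was found for SREBF2, at 133 bases before the start, and for ACSL1, against 1.39% of all genes. Each motif was counted on its own, also where it overlapped another. These matches describe the letters of the windows and are not evidence of binding.

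In the mevalonate branch, HMGCS1, which makes the HMG-CoA that enters the pathway, did not share the lower values. Its brighter probe set read 94.0 and 66.2 units at 0 h, 94.6 and 67.8 after 6 h, and 128.5 and 109.3 after 9 h in experiments 1 and 2. Both 9 h arrays lay above all 4 others, while the 6 h and 0 h arrays were alike within each experiment. The log2 change was 0.59 ± 0.40 at 9 h (limma adjusted p = 0.806) and 0.02 at 6 h. The other HMGCS1 probe set was 0.55 higher at 9 h on average, with 0.14 in experiment 1 and 0.96 in experiment 2. There the 9 h array of experiment 1 lay below the 6 h array of experiment 2, at 77.9 against 96.3 units.

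MVK, mevalonate kinase, was lower at 9 h. It read 288 and 244.5 units at 0 h, 248 and 226 after 6 h, and 152 and 155 after 9 h. The 2 arrays of 9 h lay below all others and close together, and those of 6 h overlapped the 0 h arrays. The change at 9 h was -0.79 ± 0.28 (limma adjusted p = 0.631). A second probe set of MVK was lower by 1.10 on the log2 scale at 9 h, set mostly by 57.3 units on the 0 h array of experiment 1 against 16.0 on that of experiment 2. The third was near the floor.

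MVD, which decarboxylates mevalonate diphosphate to isopentenyl diphosphate, read 43.9 and 20.3 units at 0 h and 39.4 at 6 h in experiment 1. It was at the floor on the 6 h array of experiment 2 and on both 9 h arrays. At 9 h it was thus at least 2.35-fold lower than at 0 h (limma adjusted p = 0.71). PMVK, the kinase between MVK and MVD, was lower in both experiments at 6 h and at 9 h, with log2 changes of -0.53 and -0.54. IDI1, the isomerase that follows, was higher in both experiments at both times on its brightest probe set, by 0.23 and 0.36. Its other probe set had changes of 0.03 and 0.35, with opposite signs in the experiments at 6 h. FDPS, which makes farnesyl diphosphate, had changes of 0.07 and -0.08.

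Past squalene, SQLE, the squalene epoxidase and a controlled step of the pathway, was lower in both experiments on all 3 of its probe sets at both times. Its brightest read 802 and 508 units at 0 h, 530.2 and 492 after 6 h, and 529 and 421 after 9 h, for changes of -0.32 and -0.44 ± 0.30. The experiment 1 array at 0 h stood above the rest, and the other 0 h array lay within the range of the induced arrays. LSS, which cyclises the product to lanosterol, differed in sign between experiments on its brightest probe set, with mean changes of -0.19 and -0.29. Its second tested probe set was lower in both experiments at both times, with -0.92 and -0.24.

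MSMO1, the C4-methyl oxidase, read 215 and 78.6 units at 0 h, 77.8 and 34.4 after 6 h, and 154 and 62.3 after 9 h. Within each experiment the 6 h array was the lowest of the 3, and experiment 1 was higher than experiment 2 at every time. By the brightest probe set of each gene, MSMO1 was the 1 member at least 2-fold lower in both experiments at 6 h, where 1.04% of all genes were, and 0 members were 2-fold higher, where 1.18% were. Among the dimmer probe sets, 2 of SCD and 1 of INSIG1 were also 2-fold lower in both experiments at 6 h. So was 1 of ACACA, which passed the filter only through the 0 h arrays. The share over all dimmer probe sets was not computed, so these counts have no background beside them. The MSMO1 change was -1.33 ± 0.70 at 6 h (limma adjusted p = 0.969) and -0.41 at 9 h. At 6 h it was -0.60 without the experiment 1 array of 0 h and -2.05 without that of experiment 2. Between 6 h and 9 h it was higher by 0.92, in both experiments.

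DHCR7, the final reductase that yields cholesterol, read 328.5 and 110.2 units at 0 h, 111 and 108.5 after 6 h, and 106 and 43.4 after 9 h. The experiment 1 array at 0 h stood far above every other, and in experiment 2 the 6 h array was close to 0 h and the 9 h array below both. Its change at 9 h was -1.49 ± 0.63 (limma adjusted p = 0.672), or 2.80-fold lower, and that of its second probe set was -0.34. By the brightest probe set of each gene, DHCR7 and SCAP were the 2 members at least 2-fold lower in both experiments at 9 h, where 1.08% of all genes were, and 0 members were 2-fold higher, where 2.36% were. Among the dimmer probe sets, 2 of SCD and 1 of ACLY were also 2-fold lower in both experiments at 9 h. The same held for 1 of ACACA, which passed the filter only through the 0 h arrays. Here too the share over all dimmer probe sets was not computed.

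TM7SF2, a sterol reductase, read 57.7 and 19.98 units at 0 h, 24.1 and 16.7 after 6 h, and 27.4 and 27.2 after 9 h. It was lower in both experiments at 6 h, by 0.76 on average, and of opposite sign in the 2 experiments at 9 h. HSD17B7, the 3-ketosteroid reductase, was higher in both experiments at both times, by 0.36 and 0.29. NSDHL and SC5D, which act between MSMO1 and DHCR7, had changes of -0.05 and -0.46 at 6 h and of -0.18 and -0.02 at 9 h.

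**Figure D3:**
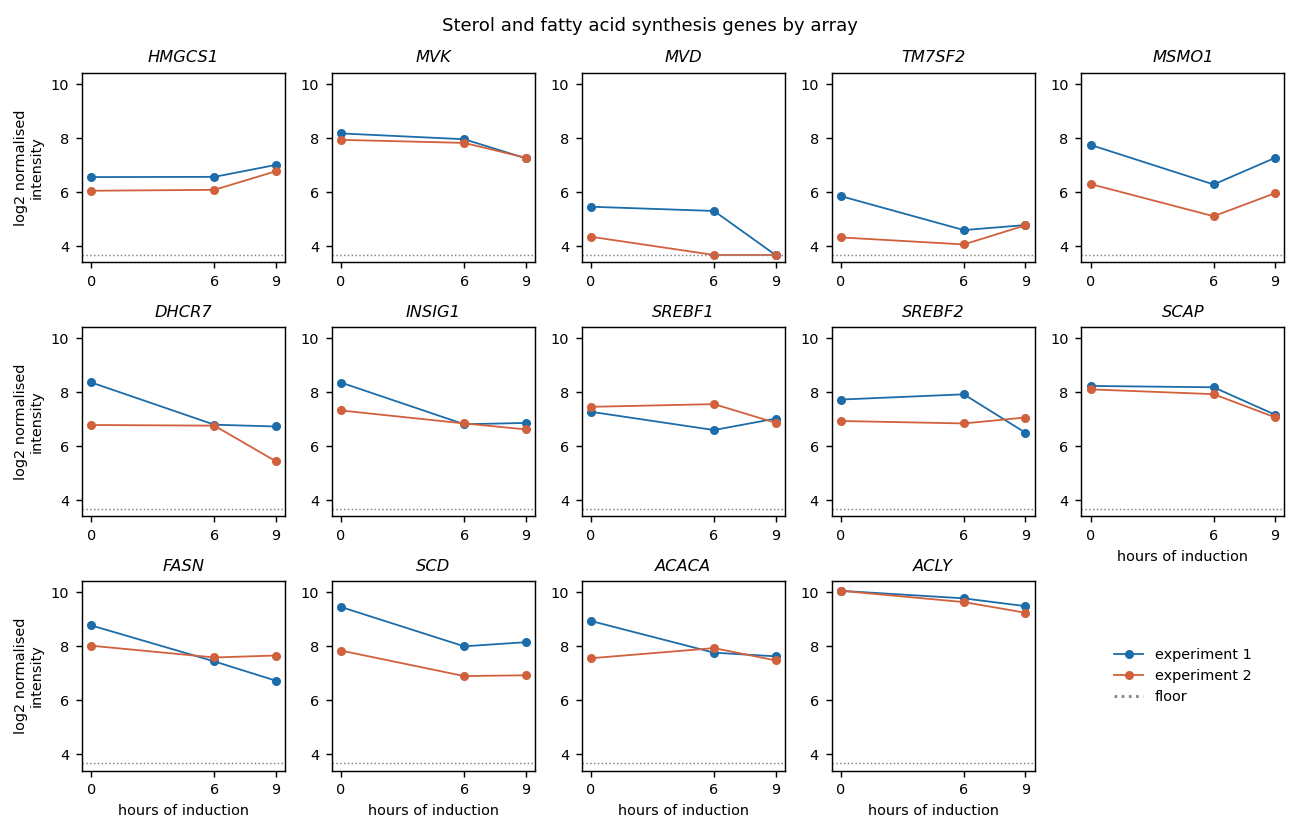
Log2 normalised intensity of 14 members on each array, each by its brightest probe set, by hours of induction, with a line for each experiment and the floor dotted. INSIG1, SCD and FASN are lower after induction in both experiments, SCAP and MVK are lower at 9 h, and HMGCS1 is highest at 9 h.

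Of the regulators, INSIG1 and SCAP had the larger changes. INSIG1 read 327 and 160.0 units at 0 h, 112 and 115 after 6 h, and 116 and 98.6 after 9 h. On this probe set, its brightest, all 4 induced arrays lay below both 0 h arrays and within a narrow band. Its change was -1.01 ± 0.42 at 6 h and -1.10 ± 0.42 at 9 h (limma adjusted p = 0.969 and 0.649). All 3 INSIG1 probe sets were lower in both experiments at both times, and the other 2 had changes of -1.50 and -1.51 at 6 h and of -1.46 and -1.49 at 9 h. On the probe set with -1.51 at 6 h, the induced arrays ran more widely, from 37.3 to 149.8 units.

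SCAP read 300.4 and 275 units at 0 h, 290.3 and 243 after 6 h, and 143.5 and 134 after 9 h. The 9 h arrays stood clear below the other 4, and the 6 h arrays were close to those of 0 h in each experiment. The log2 change was -1.05 ± 0.28 at 9 h (limma adjusted p = 0.563, the lowest of any member there) and -0.11 at 6 h. Between 6 h and 9 h it was -0.94 (limma adjusted p = 0.932).

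The transcription factor genes varied more between experiments. SREBF1, the source of the SREBP-1 forms that drive fatty acid genes, read 155 and 176 units at 0 h, 96.8 and 188 after 6 h, and 130 and 117 after 9 h. The experiments moved in opposite directions at 6 h and were both lower at 9 h, with a mean change of -0.42 ± 0.40. SREBF2, the source of the SREBP-2 that drives sterol genes, read 212 and 122 units at 0 h, 242 and 115 after 6 h, and 90.5 and 134 after 9 h. On this probe set, the brightest of SREBF2, the experiments differed in sign at both times, and the mean change at 9 h was -0.55 ± 0.49. The other SREBF2 probe set differed in sign at 6 h. At 9 h it was lower in both experiments, with -1.34 and -0.64 and a mean of -0.99.

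In the fatty acid arm, SCD, the delta-9 desaturase that makes oleate, was lower in every comparison with 0 h. Its brightest probe set read 701 and 229 units at 0 h, 256 and 119 after 6 h, and 284.5 and 122 after 9 h. Within each experiment both induced arrays lay below the 0 h array, but experiment 1 was so much brighter that its induced arrays exceeded the 0 h array of experiment 2. The log2 change was -1.20 ± 0.66 at 6 h and -1.11 ± 0.66 at 9 h (limma adjusted p = 0.969 and 0.766). All 4 probe sets were lower in both experiments at both times, with changes between -2.75 and -1.20 at 6 h and between -1.86 and -0.63 at 9 h.

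The SCD probe set that passed in 1 fit read 605 and 195 units at 0 h, 221 and 40.2 after 6 h, and 197 and 48.3 after 9 h. The induced arrays were again below 0 h within each experiment and the groups overlapped across experiments. For both induced times against 0 h its log2 change was -1.84, or -1.02 without the experiment 1 array of 0 h and -2.66 without that of experiment 2. With the experiment as a block it fell, at an adjusted p = 0.0496 in limma, and without the block the adjusted p was 0.814. Leaving out any 1 array in the blocked fit gave changes between -2.14 and -1.53 with adjusted p-values between 0.303 and 0.693, in fits with 1 residual degree of freedom in place of 2. A block by the lot line in the labels gave a change of -2.296 and an adjusted p = 0.539. The other 3 SCD probe sets had adjusted p-values of 0.0895, 0.183 and 0.0516 in the blocked fit.

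FABP4, a fatty acid binding protein typical of adipocytes, split the experiments more widely than SCD. It read 711 and 26.8 units at 0 h, 142 and 19.1 after 6 h, and 304 and 13.4 after 9 h. It was the only 1 of 6 adipocyte markers above the floor on all arrays, and LEP was at the floor on all. ADIPOQ, near the floor, went the other way, with 17.2 and 12.7 units at 0 h, 19.8 and 24.4 after 6 h, and 17.7 and 21.1 after 9 h. The summed level of the 6 ranged over 114 to 812 units at 0 h, 97.0 to 257 after 6 h and 109 to 416 after 9 h. Of the 812 units, 711 were of FABP4, so the sum mostly follows that gene. The part of this marker in the SCD values was not tested.

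FASN, the fatty acid synthase, read 437 and 259.9 units at 0 h, 174 and 192 after 6 h, and 106 and 202 after 9 h. All 4 induced arrays lay below both 0 h arrays. The change was -0.88 ± 0.42 at 6 h and -1.20 ± 0.42 at 9 h, or 2.31-fold lower at 9 h (limma adjusted p = 0.623). Its second probe set was at or near the floor and was not tested.

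ACLY cleaves citrate to cytosolic acetyl-CoA. Its brightest probe set read 1064 and 1065 units at 0 h, 876 and 796 after 6 h, and 717 and 606 after 9 h. The arrays of each time lay apart from those of the others, in descending order with time, and the 0 h arrays were nearly equal. The change was -0.35 ± 0.22 at 6 h and -0.69 ± 0.22 at 9 h (limma adjusted p = 0.604). A second probe set was lower by 1.01 at 9 h, while the third was higher by 0.12, so the probe sets of this gene disagreed.

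ACACA, the acetyl-CoA carboxylase that commits acetyl-CoA to fatty acids, read 490.4 and 188.5 units at 0 h, 217 and 244.5 after 6 h, and 198 and 178 after 9 h. The 0 h array of experiment 1 stood alone, and the other 0 h array fell within the induced range. The change was -0.40 ± 0.45 at 6 h and -0.69 ± 0.45 at 9 h. A second probe set read 29.1 and 25.8 units at 0 h and was at the floor on all 4 induced arrays, at least 2.15-fold lower. It passed the filter only through the 0 h arrays, so a lower value after induction was its only possible outcome.

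The rest of the fatty acid arm showed no such pattern. ME1, the malic enzyme that supplies NADPH, was higher in both experiments at both times on its brightest probe set, by 0.28 and 0.35. A second ME1 probe set had changes of -0.26 and 0.39, with opposite signs in the experiments at 6 h. The third, near the floor, had 0.12 and 0.86. FADS2, the delta-6 desaturase, had changes of -0.38 and 0.22, with opposite signs in the experiments at 6 h. ACSL1, which activates fatty acids, had changes of -0.23 and 0.01, and LPIN1, a phosphatidate phosphatase, of -0.11 and 0.07. On the brightest probe set of ACSL1 and of LPIN1, the experiments had opposite signs at both times.

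**Figure D4:**
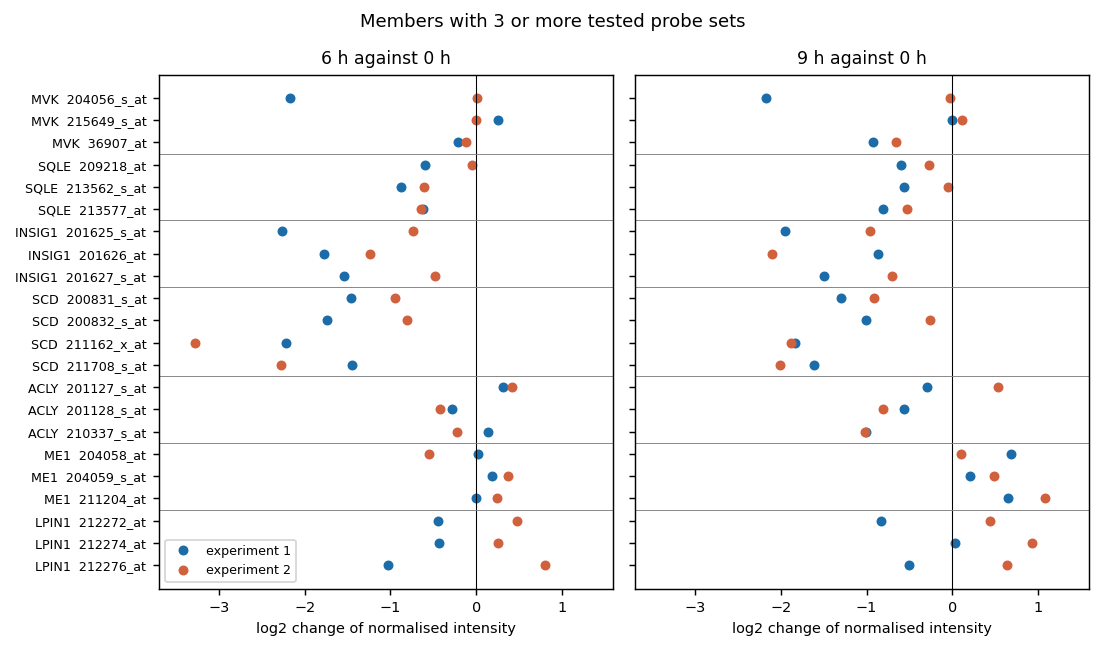
Log2 change of every tested probe set of the members with 3 or more of them, at 6 h and 9 h against 0 h, with circles for the experiments. The 4 SCD, 3 INSIG1 and 3 SQLE probe sets are lower in both experiments at both times, whereas those of ACLY, ME1, MVK and LPIN1 are of mixed sign.

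Few members had induced arrays fully apart from the 0 h arrays. All 4 induced arrays lay below both 0 h arrays for 4 of 26 members, where 7.73% of all genes did, namely INSIG1, FASN, ACLY and 1 gene of the sterol arm, PMVK. They lay above both 0 h arrays for 1 member, HSD17B7, where 7.16% of all genes did. At 9 h against 6 h, 6 members were lower in both experiments, where 27.2% of all genes were, and 7 were higher in both, where 27.4% were. These last shares, 23.1% and 26.9% of the members, lie near those of all genes.

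The medians of the sterol and fatty acid arms lay close together. The median log2 change was -0.26 for the sterol arm, -0.20 for the regulators and -0.37 for the fatty acid arm at 6 h, and -0.30, -0.80 and -0.34 in that order at 9 h. The sterol median minus the fatty acid median was 0.11 at 6 h, but 0.55 in experiment 1 and -0.18 in experiment 2. At 9 h it was 0.04, with -0.01 in experiment 1 and -0.03 in experiment 2. Of the sterol arm, 8 of 14 genes were lower in both experiments at 6 h and 6 of 14 at 9 h. Of the fatty acid arm, 3 of 8 were at 6 h and 4 of 8 at 9 h, and of the regulators 2 of 4 and 3 of 4. Of all tested genes, 25% were at 6 h and 29.5% at 9 h. Higher in both experiments were 3 and 3 of the sterol arm, 1 and 2 of the fatty acid arm and 0 and 0 of the regulators. The shares of all genes there were 26.9% and 28%. No test of the difference between arms was made.

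**Figure D5:**
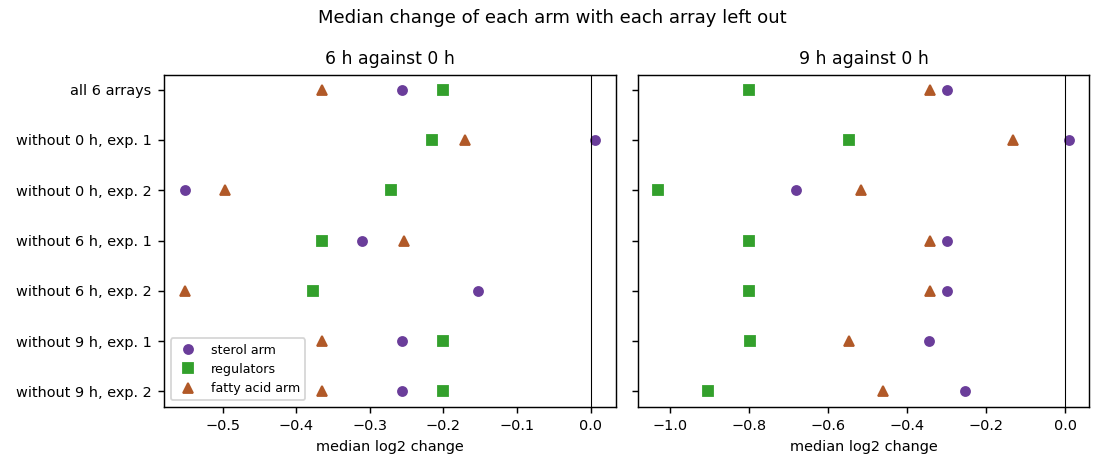
Median log2 change of each arm at 6 h and 9 h against 0 h, with all arrays and with each array left out. With the experiment 1 array of 0 h left out, the sterol median lies at 0.01 at both times, and the regulators at 9 h stay between -1.03 and -0.55. An array left out leaves its experiment unpaired, so level differences between the experiments enter these medians.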

How the data were processed

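Hs578T cells with inducible HOXA5 were measured on 6 Affymetrix arrays, 2 per time. The deposited files hold 1 linear intensity per probe set and array, and the sources used here do not say how the authors made or scaled these intensities. After quantile normalisation a floor was set at the 25th percentile of positive values (12.7), and log2 was taken. Tested were 18360 of 22283 probe sets, above the floor on at least 2 arrays and outside 68 controls, with limma 3.58.1 in R 4.3.3 (intensity trend, 3 residual degrees of freedom, two-sided, Benjamini-Hochberg). The brightest probe set stood for a gene, and probe set levels were not set against each other. All members are accounted for. Given array by array were regulators, members past the threshold in either fit and the 12 with the largest same-sign changes, and SQLE, chosen after its values were seen. Members and lists were chosen with earlier results of these data known.

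The experiment numbers pair the arrays, since the labels call them batches of RNA. Deviations from group means correlated within experiments at 0.247, 0.336 and 0.391. For the 6 h array of experiment 2, the lot line names experiment 1, and its title was followed. Alternatives covered the replicate block, scaling, floor, filter, probe set choice and leaving out each array. The fits were tested on simulated data. With 2 arrays per group, their number limits the precision.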

Additional observations from a re-analysis of the deposited data

How the results depend on the processing

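With the experiment as a replicate block, 66 probe sets passed at 9 h against 0 h and 30 for both induced times, 1 of these a member's, of SCD (log2 change -1.84, adjusted p = 0.0496). The replicate block changed no other member call. Without the filter 24, 12, 18 and 17 probe sets passed (6 h, 9 h, 9 h against 6 h, both times), and without scaling 9 did for both times. Without scaling the median of all genes was -1.36 at 6 h, -0.57 at 9 h, 0.78 at 9 h against 6 h and -0.96 for both times. The sterol medians in that order were -1.70, -0.83, 0.89 and -1.31, the regulators' -1.72, -1.35, 0.58 and -1.50, and the fatty acid arm's -1.82, -0.88, 1.08 and -1.35. HMGCS1 and SREBF2 at 6 h then gave -1.38 and -1.44, and with the lot line as a block -0.16 and -0.0067.

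The sterol minus fatty acid difference at 9 h was 0.11 with a floor at the 50th percentile and -0.031 with the mean over probe sets, which gave -0.27 for both times. The sterol median at 9 h against 6 h was -0.066 with trimmed mean scaling, -0.070 with a floor at the 10th percentile, with no filter and with a filter of 4 arrays, and -0.029 with the mean over probe sets.

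With each array left out, the sterol median ran between -0.55 and 0.0065 for 6 h, -0.68 and 0.0093 for 9 h, and -0.14 and 0.048 at 9 h against 6 h. The regulators' ran between -0.38 and -0.20 for 6 h, -0.57 and -0.27 at 9 h against 6 h, and -0.65 and -0.47 for both times, and the fatty acid arm's between -0.28 and 0.080 at 9 h against 6 h. The difference between arms ran between -0.17 and 0.21 for 9 h, -0.16 and 0.33 at 9 h against 6 h, and -0.12 and 0.21 for both times. At 6 h the change of HMGCS1 ran between -0.23 and 0.27, MVD -1.23 and 0.40, TM7SF2 -1.52 and 0.0061, SREBF1 -0.77 and 0.19, SREBF2 -0.49 and 0.59, SCAP -0.24 and 0.014, and ACACA -1.09 and 0.29. At 9 h TM7SF2 ran between -1.08 and 0.45 and MSMO1 between -1.13 and 0.32. The cause was not tested in any of these. The highest values of the sterol median against 0 h, and of TM7SF2, ACACA and MSMO1, came without the 0 h array of experiment 1. The induced arrays of both experiments then stood against the 0 h array of experiment 2. Within experiments 1 and 2, the change of MSMO1 at 9 h was -0.48 and -0.34. Signal near the floor limits MVD, TM7SF2 and EBP.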

Other observations

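Genes around the pathway were read from a pair of lists. Of 23 genes of isoprenoid branches and cholesterol handling, 19 were tested, and at 9 h against 0 h 6 (31.6%) were lower and 7 (36.8%) higher in both experiments, near the 29.5% and 28% of all genes. TMEM97, a sterol-responsive membrane protein, read 305 and 316 units at 0 h, 204 and 237 after 6 h, and 195 and 121 after 9 h, a log2 change of -1.02 ± 0.33 at 9 h. MYLIP, the ligase that degrades the LDL receptor and an LXR target, was higher by 1.01 ± 0.40 and GGPS1, which makes geranylgeranyl diphosphate, by 0.91 ± 0.45 at 9 h, both in the 2 experiments. None of these passed in limma, with adjusted p = 0.612, 0.66 and 0.709.

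Of 26 genes of fatty acid elongation, activation and supply, 19 were tested, and at 9 h 10 were lower and 2 higher in both experiments, where 29.5% and 28% of all genes were. SLC25A1, the carrier that exports citrate from mitochondria to ACLY, read 584.5 and 403 units at 0 h, 501 and 369.9 after 6 h, and 212 and 256 after 9 h. Its 9 h arrays lay below all others, with a log2 change of -1.06 ± 0.31. TECR, an elongation reductase, had a change of -0.84 ± 0.33 and PGD, which supplies NADPH, of -0.74 ± 0.36. Their limma adjusted p-values were 0.59, 0.656 and 0.703.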
